A study of Mus musculus with 6 samples.

Results

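The genes described here are 42 genes of the lysosome, chosen by symbol among the 19349 gene rows that all 6 count tables share, and each of the 42 was found in every table. They comprised 7 subunits of the membrane sector (V0) and 8 subunits of the catalytic sector (V1) of the vacuolar H+-ATPase (V-ATPase), 2 accessory V-ATPase proteins, 11 proteases (10 cathepsins and legumain), 5 other hydrolases and activators, 6 genes of the lysosomal membrane and of cholesterol export, and 3 transcription factors of the MiT/TFE family. Liver non-parenchymal cells were taken from male C57BL/6J mice, bought at 8 weeks of age and fed a high-fat diet for 24 weeks as a model of non-alcoholic steatohepatitis (NASH). In the last 8 weeks the mice received either vehicle (DMSO) or ginkgetin, a plant biflavonoid, at 10 mg/kg/day into the stomach. All mice of both groups were on the high-fat diet, and chow-fed mice were not analysed here. Each group had 3 libraries of single cells made with the 10x Genomics Chromium system. The sources do not say whether the 3 libraries of a group came from 3 separate mice, so the p-values measure the spread between libraries, which may be technical.

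The lysosome is the acidic compartment where macrophages break down lipoproteins, dead cells and other ingested material. The V-ATPase pumps protons into it, with V1 splitting ATP in the cytosol and V0 carrying the protons across the membrane. The low pH activates cathepsins and acid hydrolases, while NPC2 and NPC1 hand free cholesterol out of the lumen. TFEB, TFE3 and MITF bind short E-box letters in the promoters of many of these genes and raise their transcription when the lysosome is under load.

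The promoters of called members with and without the E-box letters are shown first. In RefSeq promoter windows of GRCm38.p6, which run from 250 bases before to 50 bases after the start, 33 of the 42 members had an entry. Of these, 12 (36.4%) held the letters CACGTG, which read alike on both strands, against 8.09% of the 27025 genes with such a window. The longer form TCACGTGA, which contains the first motif, was in 6 of the 33 (18.2%) and in 1.12% of all genes. A match says only that the letters are present and is no evidence of binding. The 9 members with no entry in the set of windows used were Atp6v0a2, Atp6v0d2, Atp6v1b2, Atp6v1c1, Atp6v1g1, Atp6v1h, Ctsb, Ctsh and Npc1. This does not mean that RefSeq lacks these genes. The 150 bases just before the start are printed 5′ to 3′ on the strand of the gene, in lower case with CACGTG in capitals.
Ctsd: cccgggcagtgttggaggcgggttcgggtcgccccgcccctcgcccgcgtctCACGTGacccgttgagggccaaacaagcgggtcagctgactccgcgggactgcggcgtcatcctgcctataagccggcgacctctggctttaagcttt
Mcoln1: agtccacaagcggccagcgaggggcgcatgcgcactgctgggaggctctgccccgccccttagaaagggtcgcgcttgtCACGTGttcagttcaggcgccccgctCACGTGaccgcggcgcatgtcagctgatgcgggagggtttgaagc
Ctsf: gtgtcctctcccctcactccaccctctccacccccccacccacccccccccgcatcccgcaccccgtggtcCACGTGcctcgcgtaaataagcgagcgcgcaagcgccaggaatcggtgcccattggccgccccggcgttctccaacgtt
Cd68: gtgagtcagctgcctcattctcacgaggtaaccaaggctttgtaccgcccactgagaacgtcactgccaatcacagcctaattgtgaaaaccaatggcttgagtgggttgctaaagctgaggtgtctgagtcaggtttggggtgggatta
These stretches lie at chr7:142387828-142387977 (minus strand) for Ctsd, chr8:3500369-3500518 (plus strand) for Mcoln1, chr19:4855015-4855164 (plus strand) for Ctsf and chr11:69666171-69666320 (minus strand) for Cd68. The Ctsd motif begins 98 bases before the start, with another farther upstream in its window, the Ctsf motif 79 bases before it, and the Mcoln1 motifs 71 and 45 bases before it. Ctsd and Mcoln1 both hold the longer form TCACGTGA. The RNA of Ctsd fell and that of Mcoln1 rose in macrophage-like cells, as given further on, and the part of the motif in either was not tested. Among the other called members with an entry, Ctsl held CACGTG farther upstream and Atp6v0e, called lower in a sub-cluster described further on, held TCACGTGA just after the start, whereas Ctsk, Ctsz and Gusb, like Cd68, had none in the whole window.

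Of 33168 deposited barcodes, 27544 passed the filter on genes per cell and mitochondrial share, and 26303 of these were sorted into 12 classes by markers, among them 3898 macrophage-like cells. Within these, 2294 cells were named Kupffer-like, after the resident macrophages of the liver, and 1558 lipid-associated macrophage-like. The share of cells left unnamed was 11.2% in ginkgetin replicate 3 and 1.71% to 4.84% in the other libraries. Members were not used for clustering, and none was a marker. Both replicate 3 libraries stood apart from the other 4, since 3199 of the 19349 genes had UMIs (unique molecular identifiers, which mark single captured RNA molecules) in only 1 of these 2 sets of libraries or in none. Pairs of libraries shared at most 85 barcodes. The libraries held 13128697 to 61796882 UMIs. Macrophage-like cells were far shallower after ginkgetin, with median UMIs per cell of 2079.5 to 2348 per library against 7542 to 16314 with vehicle. The sum of 9 endothelial markers in macrophage-like cells was 916 to 1710 CPM (counts per 1000000 UMIs) with ginkgetin against 185 to 215 with vehicle, while the sum of 9 macrophage markers overlapped between the groups (18066 to 22615 against 19577 to 22073 CPM). Marker sums of plasma cells (303 to 850 against 122 to 243 CPM) and of T, B, NK, dendritic and mast cells were also higher with ginkgetin without overlap. The cholangiocyte sum was lower (52.9 to 200 against 258 to 664 CPM). The sub-class markers did not overlap: the sum of 8 lipid-associated markers was 962 to 2114 CPM with ginkgetin against 5115 to 7041 with vehicle, and that of 8 Kupffer markers 8907 to 15050 against 6330 to 7289 CPM. Kupffer-like cells were 86.3%, 81.1% and 92.0% of the macrophage-like cells with ginkgetin and 59.5%, 58.8% and 34.4% with vehicle. The part of the depth, of the endothelial RNA and other marker RNA, and of the mix of sub-classes in the results below was not tested except where a value is given.

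The 42 genes took their largest share of RNA in the macrophage-like class. Together the 42 members made up 3.11% ± 0.15 (SD, n = 3) of the UMIs of macrophage-like cells with vehicle and 2.95% ± 0.49 (SD, n = 3) with ginkgetin. Monocyte-like cells followed with 1.62% ± 0.11 and 1.35% ± 0.18 (SD, n = 3 each), and plasmacytoid dendritic-like cells with 1.39% ± 0.068 and 1.17% ± 0.219 (SD, n = 3 each). The lowest shares were in T cell-like cells, at 0.282% ± 0.020 with vehicle and 0.233% ± 0.00721 with ginkgetin (SD, n = 3 each). Within the lipid-associated macrophage-like cells the share was 2.91% to 3.11% in the vehicle libraries and 1.83% to 2.39% in the ginkgetin libraries, which did not overlap. In the Kupffer-like cells the shares overlapped (2.98% to 3.44% against 2.87% to 3.74%).

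**Figure D1:**
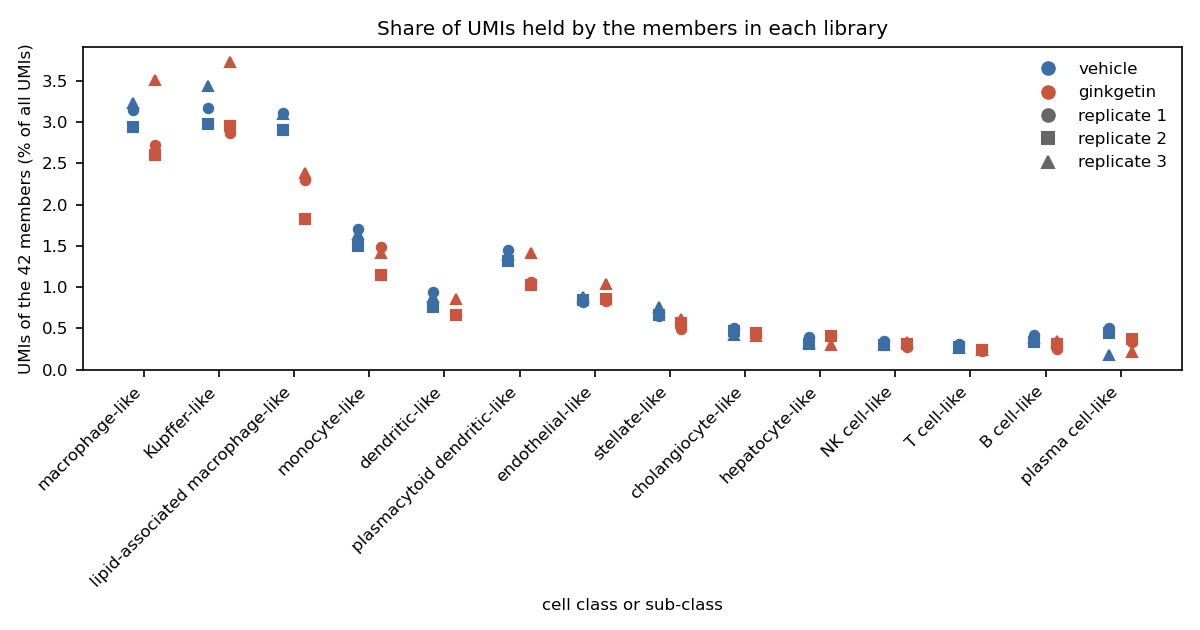
Share of all UMIs held by the 42 members (y axis, percent) in each cell class or sub-class (x axis), with 1 point per library, blue for vehicle and red for ginkgetin, and the symbol giving the replicate. The macrophage-like points and their 2 sub-classes lie between 1.83% and 3.74%, above every point of the other classes, and the groups overlap in macrophage-like and in Kupffer-like cells.

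By mean level over the libraries, 29 of the 42 members were highest in macrophage-like cells, 4 in endothelial-like and 4 in plasmacytoid dendritic-like cells, 2 in stellate-like cells and 1 each in NK cell-like, hepatocyte-like and monocyte-like cells. For 14 members the macrophage-like class was highest in all 6 libraries. For 9 of them every macrophage-like library was above every library of the next class, namely Atp6v1a, Atp6v1g1, Ctsb, Ctsc, Ctsd, Lgmn, Lipa, Hexa and Lamp1. Ctsb, which encodes the cysteine protease cathepsin B, stood at 5589 CPM ± 829 (SD, n = 6) in macrophage-like cells and at 1431 CPM in the next class, plasmacytoid dendritic-like cells. Lipa, the acid lipase that frees cholesterol and fatty acids from lipoproteins, stood at 408 CPM ± 117 (SD, n = 6) against 116 CPM in monocyte-like cells.

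Other members had their highest mean elsewhere. Ctsl, encoding cathepsin L, was at 1102 CPM ± 244 (SD, n = 6) in endothelial-like cells, where its libraries overlapped those of plasmacytoid dendritic-like cells, the next class. Lamp2, a structural protein of the lysosomal membrane, was at 592 CPM ± 156 (SD, n = 6) in endothelial-like cells and overlapped with macrophage-like cells. Npc1 was at 164 CPM ± 61 (SD, n = 6) in plasmacytoid dendritic-like cells, where every library was above every macrophage-like library. Ctsk, the collagen-cleaving cathepsin K known from osteoclasts, was highest in stellate-like cells, where the vehicle libraries held 53.0, 34.3 and 135 CPM and the ginkgetin libraries 0, 11.8 and 32.6 CPM. Atp6v0c, the proton-carrying ring subunit of V0, was counted at no more than 5.87 CPM in any macrophage-like library, and since near-identical Atp6v0c pseudogenes exist its reads may have been split or discarded, so its values are uncertain.

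**Figure D2:**
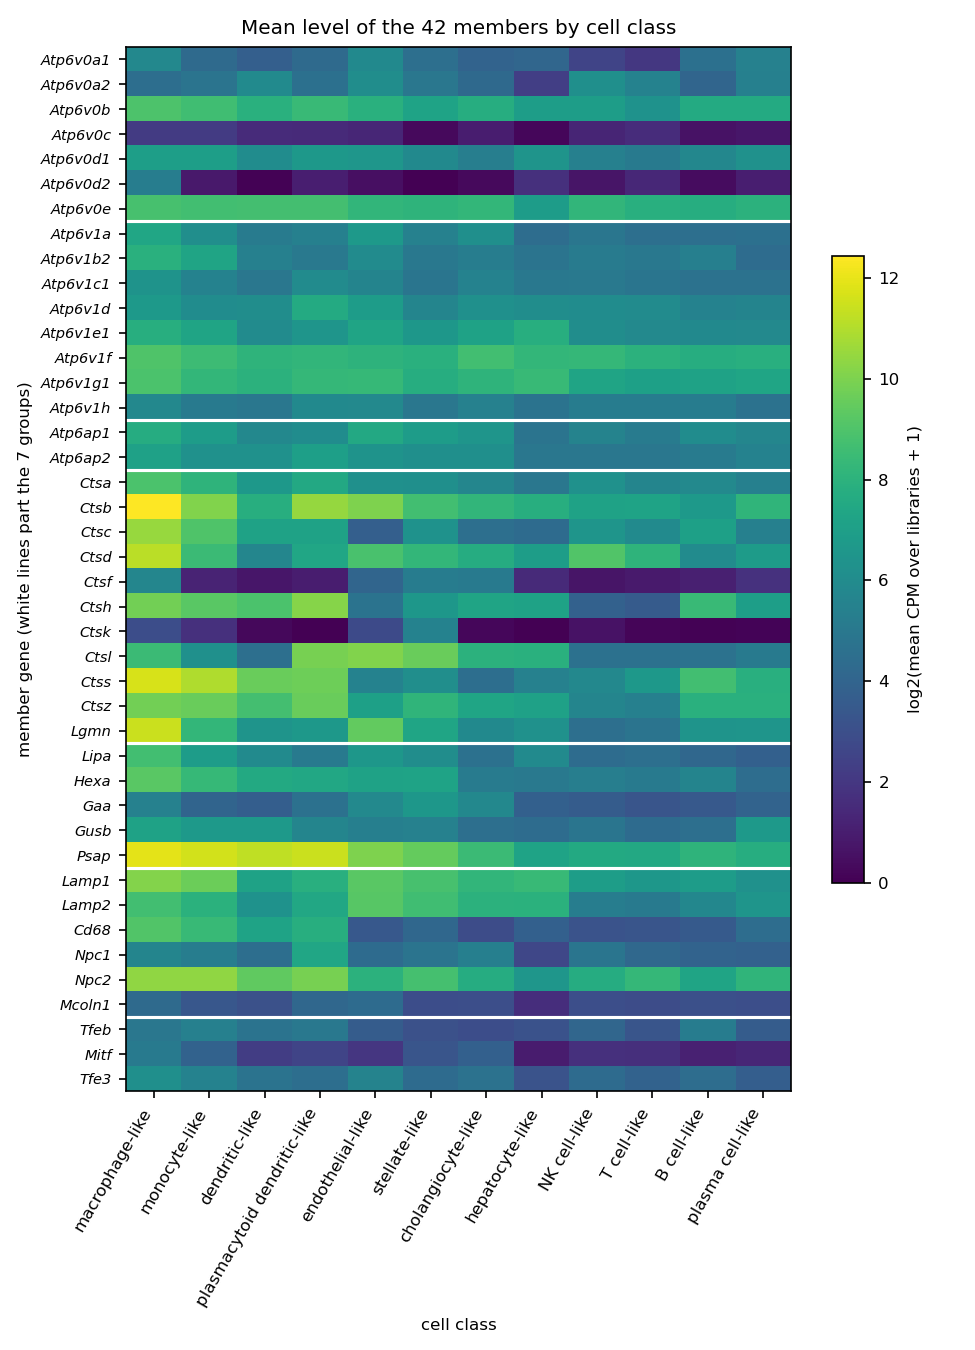
Mean level of each of the 42 members (rows, grouped by role with white lines between groups) in the 12 cell classes (columns), as log2 of the mean CPM over libraries plus 1, on the colour scale. The macrophage-like column is brightest for 29 of the 42 members, and the mean of Atp6v0d2 is at most 2.29 CPM outside it.

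The comparison of ginkgetin with vehicle asked which of these genes changed within a cell class. UMIs were summed per class and library and tested with the edgeR quasi-likelihood test across all genes. A gene was called when its Benjamini-Hochberg adjusted p was under 0.05 and its fold change over 2. In macrophage-like cells all 42 members were tested and 8 were called, 6 lower and 2 higher. This is to be read against all 9894 genes tested, of which 13.9% were called, 6.81% lower and 7.07% higher. The median log2 fold change of the 42 members was -0.48 beside 0.03 for all genes, and 34 of the 42 were below 0. These folds rest on TMM (trimmed mean of M-values) scaling. Scaling by total UMIs alone moved the median of all genes to 0.53 in macrophage-like, 0.50 in Kupffer-like, 0.30 in lipid-associated macrophage-like and 0.13 in endothelial-like cells, and that of the members in macrophage-like cells to -0.02, with 22 of the 42 below 0. In macrophage-like cells it also turned the split of calls from 700 higher and 674 lower to 1981 higher and 203 lower. CPM values are on the total-UMI scale and log2 folds on the TMM scale, so changes are relative to the median gene, and a member can have a slightly higher CPM and a negative fold.

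Among the V-ATPase genes, Atp6v0d2 fell the furthest. It encodes the d2 isoform of the V0 stalk, a form typical of osteoclasts and of some macrophages. Its level in macrophage-like cells was 62.3, 56.6 and 102 CPM in the vehicle libraries and 0, 0 and 4.32 CPM in the ginkgetin libraries. The groups lay far apart, and the ginkgetin signal consisted of 9 UMIs of 3070972, all in replicate 3, against 2963 of 36329750 with vehicle. The summed level was thus 27.8-fold higher with vehicle (95% exact interval 14.6 to 60.9, counting error only), and the fitted log2 fold change was -5.30 (SE 0.52, edgeR quasi-likelihood test, adjusted p = 0.0023). The levels of 0 in ginkgetin replicates 1 and 2 allow up to 9.34 and 4.503 CPM (3 counts per library). Its counterpart Atp6v0d1, the d1 isoform found in most cells, was at 132, 125 and 122 CPM with vehicle and 134, 107 and 134 CPM with ginkgetin, and these overlapped (log2 fold change -0.49, SE 0.21, adjusted p = 0.132).

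None of the 8 V1 subunits passed the call, and neither did the remaining 6 of V0 or the 2 accessory proteins. Atp6v0c, whose values are uncertain, had a log2 fold change of -0.28 (edgeR quasi-likelihood test, adjusted p = 0.81). All 8 V1 subunits had a log2 fold change below 0, with a median of -0.50, but 4 of the 8 were above 0 when scaled by total UMIs (median -0.02). Atp6v1c1 and Atp6v0e, named here after their values were seen, were lower by less than 2-fold at adjusted p = 0.045 and 0.0454. Atp6v1a, which holds the ATP-splitting site, was at 142, 144 and 176 CPM with vehicle and 153, 161 and 218 CPM with ginkgetin, which overlapped (log2 fold change -0.26, SE 0.19, adjusted p = 0.352). Atp6ap1, an accessory subunit needed for assembly, had 130, 163 and 154 CPM with vehicle and 280, 248 and 268 CPM with ginkgetin, yet its TMM-scaled log2 fold change was 0.37 (SE 0.22, adjusted p = 0.252).

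Among the proteases, Ctsd, Ctsz and Ctsk fell and Ctsf rose in the macrophage-like class, whose cells were mostly in sub-clusters 0, 1, 2 and 5 with vehicle and in 3 and 4 with ginkgetin. Ctsd, the aspartic protease cathepsin D, was at 2854, 2941 and 3792 CPM with vehicle and 1230, 1174 and 1748 CPM with ginkgetin. The groups did not overlap, and its log2 fold change was -1.67 (SE 0.27, edgeR quasi-likelihood test, adjusted p = 0.00668). Ctsz, the carboxypeptidase cathepsin Z, was at 1063, 1005 and 1664 CPM with vehicle and 461, 456 and 698 CPM with ginkgetin. Its log2 fold change was -1.67 (SE 0.27, adjusted p = 0.00658). Ctsk was rare, at 10.97, 20.3 and 7.34 CPM with vehicle and 0, 0 and 0.960 CPM with ginkgetin, with a fitted log2 fold change of -4.86 (SE 0.86, adjusted p = 0.00837). Its ginkgetin signal was 2 UMIs, so the summed level was 16.4-fold higher with vehicle with a wide interval (95% exact interval 4.498 to 136). Of the 387 vehicle UMIs of Ctsk, 378 were in lipid-associated macrophage-like cells, the sub-class that was smaller after ginkgetin.

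Ctsf, the cysteine protease cathepsin F, was at 22.2, 20.3 and 31.8 CPM with vehicle and 65.4, 82.6 and 88.3 CPM with ginkgetin, without overlap (log2 fold change 1.21, SE 0.20, edgeR quasi-likelihood test, adjusted p = 0.00711). Counted per cell the Ctsf libraries overlapped, with 22.4, 16.9 and 52.8 UMIs per 100 cells with vehicle and 20.6, 23.1 and 33.5 with ginkgetin. With vehicle its level was 10.8, 9.87 and 14.2 CPM in lipid-associated and 28.7, 29.7 and 58.3 CPM in Kupffer-like cells, and the part of their mix in the rise was not tested. Cathepsins B, L and S did not pass the call in the main fit. Ctss was called lower with replicates 1 and 2 only and without vehicle replicate 3, and Ctsl without ginkgetin replicate 3. Ctss, the cathepsin that trims the invariant chain for antigen presentation, was at 4490, 3809 and 3374 CPM with vehicle and 2868, 2489 and 2876 CPM with ginkgetin (log2 fold change -0.97, SE 0.30, adjusted p = 0.053). Ctsb was at 5363, 5454 and 5105 CPM with vehicle and 5518, 4881 and 7210 CPM with ginkgetin, with a log2 fold change of -0.33 (SE 0.29, adjusted p = 0.453), and Ctsl at 411, 300 and 415 against 202, 279 and 524 CPM (log2 fold change -0.66, SE 0.29, adjusted p = 0.142). Lgmn, the asparaginyl endopeptidase legumain, had a CPM above every vehicle library in all 3 ginkgetin libraries (2594, 2747 and 5602 against 2136, 1718 and 2204), but its log2 fold change was 0.35 (SE 0.31, adjusted p = 0.454).

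Of the membrane, cholesterol and hydrolase genes, Cd68 and Gusb fell and Mcoln1 rose. Cd68, the glycoprotein used in histology to mark macrophages, was at 780, 697 and 839 CPM with vehicle and 255, 288 and 352 CPM with ginkgetin. The ranges lay well apart, with a log2 fold change of -1.84 (SE 0.22, edgeR quasi-likelihood test, adjusted p = 0.00324). Gusb, encoding beta-glucuronidase, was at 170, 154 and 225 CPM with vehicle and 106, 78.1 and 120 CPM with ginkgetin (log2 fold change -1.32, SE 0.23, adjusted p = 0.00808), although scaled by total UMIs it was -0.85 and no longer past the 2-fold minimum. Mcoln1, the calcium channel TRPML1 of the lysosomal membrane, was at 8.14, 9.32 and 11.9 CPM with vehicle and 15.6, 34.5 and 33.6 CPM with ginkgetin. Its log2 fold change was 1.10 (SE 0.27, adjusted p = 0.0268), and it rested on 5, 23 and 70 UMIs in the ginkgetin libraries. Counted per cell, the Mcoln1 libraries of vehicle and ginkgetin overlapped, as those of Ctsf did.

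Lipa and Npc2 were lower by less than 2-fold in the main fit, though Lipa passed the call in 6 of 18 alternative fits and Npc2 in 2 of 18. Lipa was at 395, 433 and 614 CPM with vehicle and 274, 320 and 415 CPM with ginkgetin (log2 fold change -0.98, SE 0.23, adjusted p = 0.0209). Npc2 was at 1638, 1650 and 1354 CPM with vehicle and 1183, 1043 and 1142 CPM with ginkgetin (log2 fold change -0.92, SE 0.27, adjusted p = 0.0436). Ctsh and Hexa, also named after their values were seen, completed the 12 members that were lower at an adjusted p under 0.05 without a minimum fold, as 9.43% of all genes tested were, beside 2 that were higher (9.59% of all genes tested). Scaled by total UMIs the counts were 6 lower and 4 higher (3.21% and 24.5% of all genes), and neither Lipa nor Npc2 was among them. Lamp1, an abundant coat protein of the membrane, was at 958, 1008 and 1170 CPM with vehicle and 1292, 1076 and 1251 CPM with ginkgetin (log2 fold change -0.24, SE 0.24, adjusted p = 0.515). Psap, the precursor of the saposins that help degrade sphingolipids, had 3656, 3081 and 3826 CPM with vehicle and 4014, 4284 and 4358 CPM with ginkgetin (log2 fold change -0.19, SE 0.27, adjusted p = 0.654). For Lamp1 and Psap the sign depended on the scaling, and neither passed the call under either one.

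**Figure D3:**
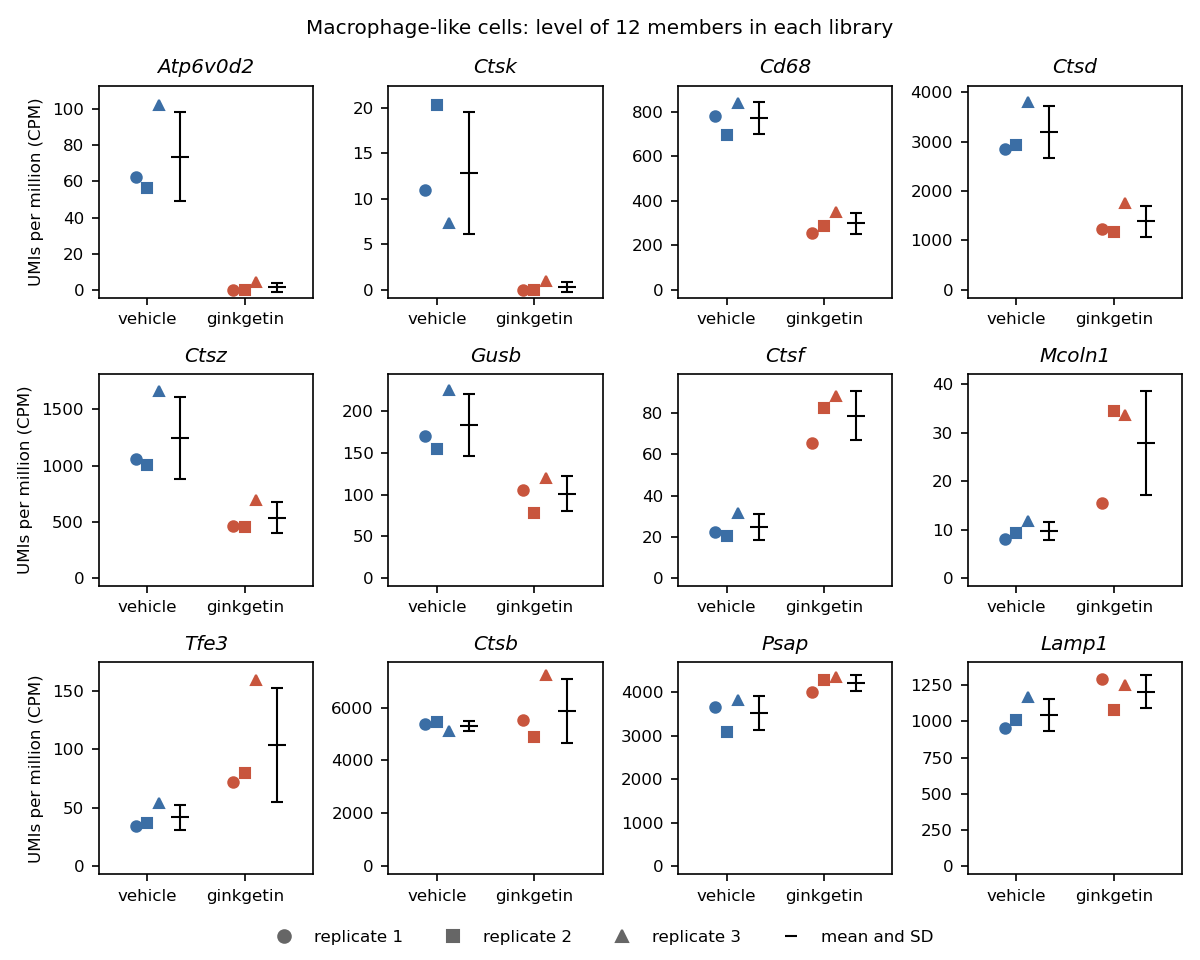
Level of 12 members in macrophage-like cells (y axis, CPM, starting near 0, a separate scale in each panel) in the 3 vehicle (blue) and 3 ginkgetin (red) libraries, with the symbol giving the replicate and the black bars the mean and SD. The vehicle and ginkgetin points of Atp6v0d2, Ctsk, Cd68, Ctsd, Ctsz, Gusb, Ctsf and Mcoln1 do not overlap, while those of Ctsb and Lamp1 do. The points of Tfe3 and Psap, which were not called, do not overlap either, so a lack of overlap is not particular to called members.

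The transcription factors did not pass the call. Tfeb was at 22.3, 31.2 and 34.7 CPM with vehicle and 18.7, 34.5 and 33.6 CPM with ginkgetin (log2 fold change -0.44, SE 0.24, adjusted p = 0.227). Mitf was at 27.3, 32.4 and 49.6 against 31.1, 15.01 and 39.4 CPM (log2 fold change -0.80, SE 0.32, adjusted p = 0.110). Tfe3 was above every vehicle library in each ginkgetin library, at 71.6, 79.6 and 159 CPM against 34.4, 36.8 and 53.9 CPM, with a log2 fold change of 0.86 (SE 0.26, adjusted p = 0.05004, just above the threshold). With total UMIs as the scale the Tfe3 log2 fold change was 1.36 and passed the call (adjusted p = 0.0181). Tfeb, which had a log2 fold change of 0.06 on that scale, was not called there.

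Several of these values depended on which cells were kept. When cells were instead kept by 250 to 5000 UMIs, as the methods of the study word it, which leaves shallow cells in both groups, 3 members were called lower and 0 higher by the same test, where 3.25% and 3.11% of all genes were, beside 8 called in all with the main filter. Atp6v0d2 (log2 fold change -5.13, adjusted p = 0.00592), Cd68 (-1.71, adjusted p = 0.0198) and Ctsz (-1.45, adjusted p = 0.0386) remained called. Ctsd had -1.17 (adjusted p = 0.0661), Gusb -0.95 (adjusted p = 0.0696), Ctsf 1.39 (adjusted p = 0.0582) and Mcoln1 1.19 (adjusted p = 0.083). Without ginkgetin replicate 3 Ctsk was no longer called (adjusted p = 0.0694). The Mcoln1 call was lost without ginkgetin replicate 2 or 3 or without vehicle replicate 1 or 2. With replicates 1 and 2 alone, 7 members were called lower and 2 higher, including all 8 members called from all 6 libraries, where 6.51% and 6.30% of all genes were called.

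**Figure D4:**
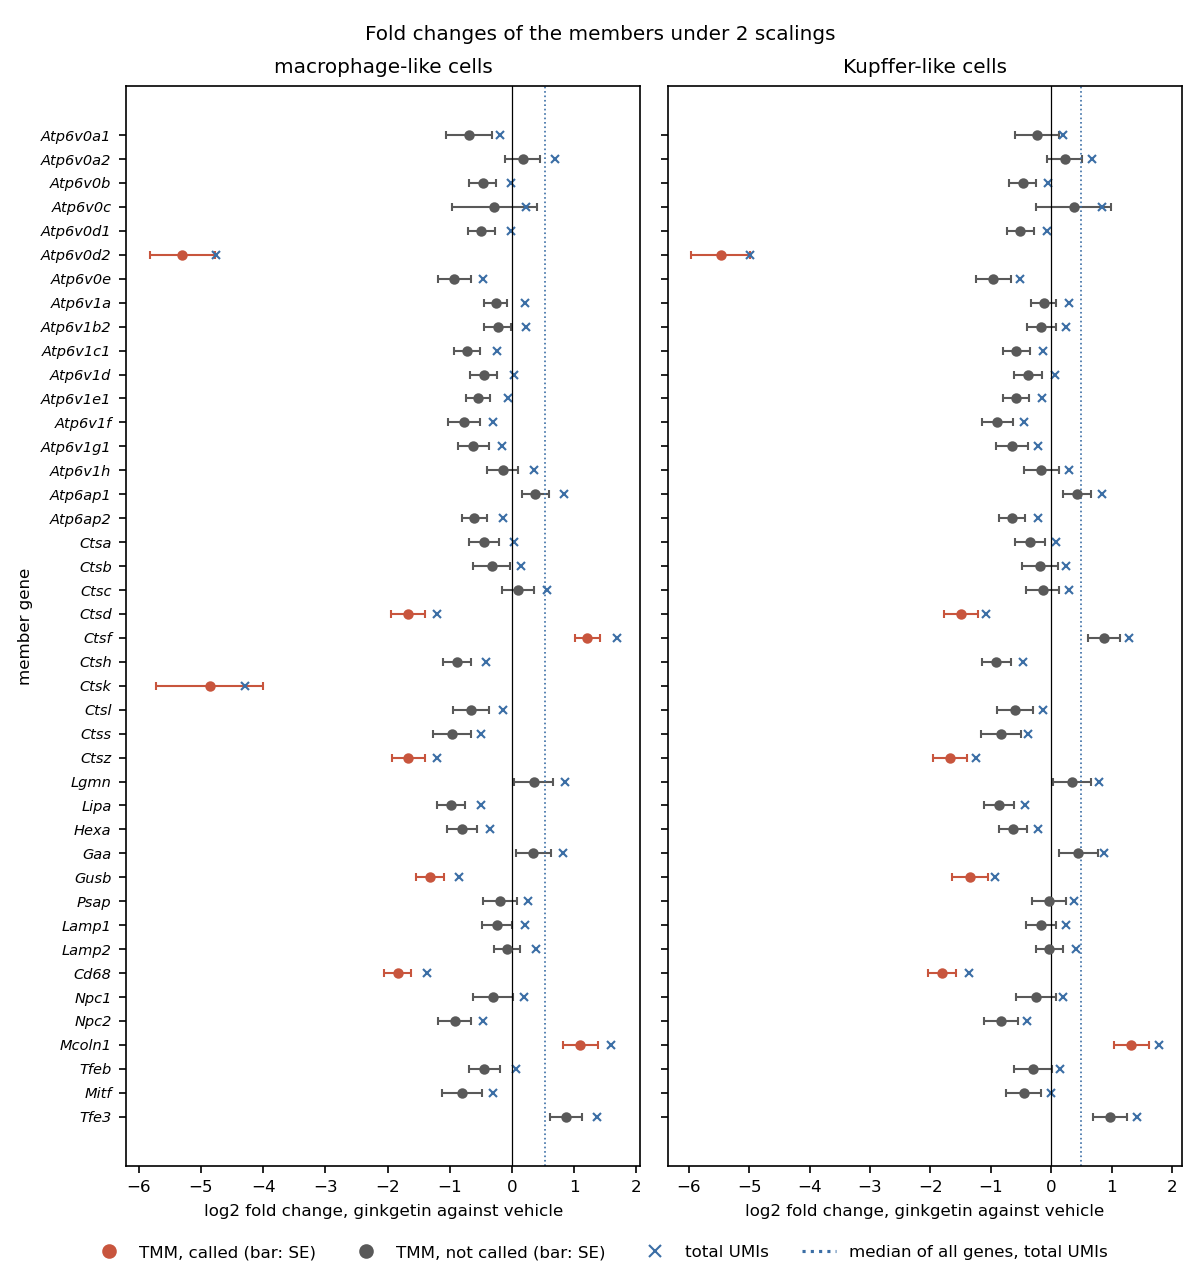
log2 fold change of each member, ginkgetin against vehicle (x axis), in macrophage-like (left) and Kupffer-like cells (right). Circles with SE bars are TMM-scaled values, red where called, crosses are values scaled by total UMIs, and the dotted line is the median of all genes on that scale, 0.53 and 0.50. Atp6v0d2 lies near -5 in both panels on both scales, and most uncalled members lie between -1 and 1.

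The Kupffer-like cells are a part of the macrophage-like cells above, so their values are not independent of those. Within them the sum of the 8 lipid-associated markers was 3722 to 5130 CPM with vehicle and 1030 to 2096 CPM with ginkgetin, and that of the 9 endothelial markers 298 to 392 and 1109 to 2014 CPM. The part of either in the values below was not tested. Of 41 members tested, 6 were called, 5 lower and 1 higher, where 12.8% of 8919 genes were called, 6.77% lower and 6.03% higher. Without a minimum fold 8 were lower and 2 higher, as 7.99% and 7.59% of all genes tested were, but 4 and 4 when scaled by total UMIs (3.44% and 19.7% of all genes). Atp6v0d2 was at 50.04, 37.1 and 65.7 CPM with vehicle and 0, 0 and 2.34 CPM with ginkgetin (log2 fold change -5.47, SE 0.49, edgeR quasi-likelihood test, adjusted p = 0.00116). Cd68 was at 721, 609 and 738 against 223, 259 and 317 CPM (log2 fold change -1.80, SE 0.23, adjusted p = 0.00368). Ctsz (log2 fold change -1.68), Ctsd (-1.50) and Gusb (-1.35) also fell and Mcoln1 rose (1.33), with adjusted p of 0.00745, 0.0113, 0.0197 and 0.0173. The Gusb call was lost without ginkgetin replicate 2 or 3, with the UMI filter on cells and when scaled by total UMIs (log2 fold change -0.93, adjusted p = 0.065). The Mcoln1 call was lost without ginkgetin replicate 2 or 3, without vehicle replicate 1 or 2 and with the UMI filter. Without vehicle replicate 3 the counts were 10 lower and 3 higher, where 10.0% and 9.21% of all genes were called. Tfe3 had a log2 fold change of 0.97 (adjusted p = 0.0467), under the 2-fold minimum. Scaled by total UMIs, Tfe3 (log2 fold change 1.42) and Ctsf (1.29) passed the call, each at an adjusted p of 0.022 by the same test. Ctsf, called in all macrophage-like cells together, was at 28.7, 29.7 and 58.3 CPM with vehicle and 82.4, 102 and 99.4 CPM with ginkgetin (log2 fold change 0.88, SE 0.26, adjusted p = 0.0513), and Gaa, the acid alpha-glucosidase, had a log2 fold change of 0.45 (adjusted p = 0.35).

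The Kupffer-like cells were not one population, and Atp6v0d2 followed its sub-clusters. The cells fell into 4 sub-clusters whose libraries differed by group and by library set. Sub-cluster 3 was the one Kupffer-like sub-cluster with at least 10 cells from 2 libraries of each group, all from replicates 1 and 2. There Atp6v0d2 was at 0.602 and 1.08 CPM with vehicle and 0 and 0 CPM with ginkgetin, so vehicle cells too had almost none. In sub-cluster 0, made up of vehicle cells in every library with 10 or more cells, it was at 64.0, 52.2 and 66.8 CPM. Gpnmb, a lysosomal glycoprotein of lipid-loaded macrophages that is not a member, was at 247, 259 and 146 CPM in sub-cluster 0 and at 13.2 and 22.7 CPM in the vehicle cells of sub-cluster 3. Among libraries with 10 or more cells, sub-cluster 4 came from 1 library alone, ginkgetin replicate 3 (484 cells) and held 2.41 CPM of Atp6v0d2. Sub-cluster 5 came from the replicate 3 libraries, with 65.8 CPM in 360 vehicle cells and 0 of 34042 UMIs in 11 ginkgetin cells. At that depth the limit of 3 counts lies above the vehicle level, so this 0 does not show a fall. The group difference of Atp6v0d2 in Kupffer-like cells and the difference in sub-cluster thus cannot be told apart.

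Cd68, Ctsz and Mcoln1, in contrast, also differed between the groups within sub-cluster 3. This comparison of 2 libraries against 2 was chosen after the data were seen, and it depends on the clustering. With members kept in clustering, without the highest doublet scores or with genes of 1 barcode set kept, 0 Kupffer-like sub-clusters held 10 or more cells of 2 libraries of each group. The sub-cluster was also not alike in macrophage state, since Trem2, a lipid receptor of lipid-associated macrophages that is not a member, was at 213 and 310 CPM with vehicle and 21.0 and 48.1 CPM with ginkgetin there. It tested 39 members, of which 3 were called lower and 1 higher, where 7.10% of 6125 genes were called lower and 5.89% higher. Without a minimum fold 10 were lower and 1 higher, as 10.2% and 7.22% of all genes tested were. Cd68 was at 698 and 573 CPM with vehicle and 226 and 256 CPM with ginkgetin (log2 fold change -1.73, SE 0.20, edgeR quasi-likelihood test, adjusted p = 0.00118). Ctsz was at 887 and 873 against 373 and 429 CPM (log2 fold change -1.46, SE 0.18, adjusted p = 0.00148). Mcoln1 was at 3.61 and 6.497 against 21.0 and 43.7 CPM (log2 fold change 2.52, SE 0.51, adjusted p = 0.00901). Atp6v0e, named after its values were seen, was also called (log2 fold change -1.02, adjusted p = 0.0102). Ctsd was at 2354 and 1996 against 1257 and 1511 CPM, just short of 2-fold (log2 fold change -0.98, SE 0.19, adjusted p = 0.00742), and Gusb did not pass (log2 fold change -0.93, adjusted p = 0.0574). Psap, Tfeb and Atp6v1a, not called in either set of cells, had log2 fold changes of 0.53, 0.63 and 0.28 there, opposite in sign to the values of all Kupffer-like cells. Depth differed here too: the vehicle libraries gave 1661425 UMIs from 163 cells and 923513 from 137 cells, and the ginkgetin libraries 238621 from 86 cells and 457276 from 191 cells.

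**Figure D5:**
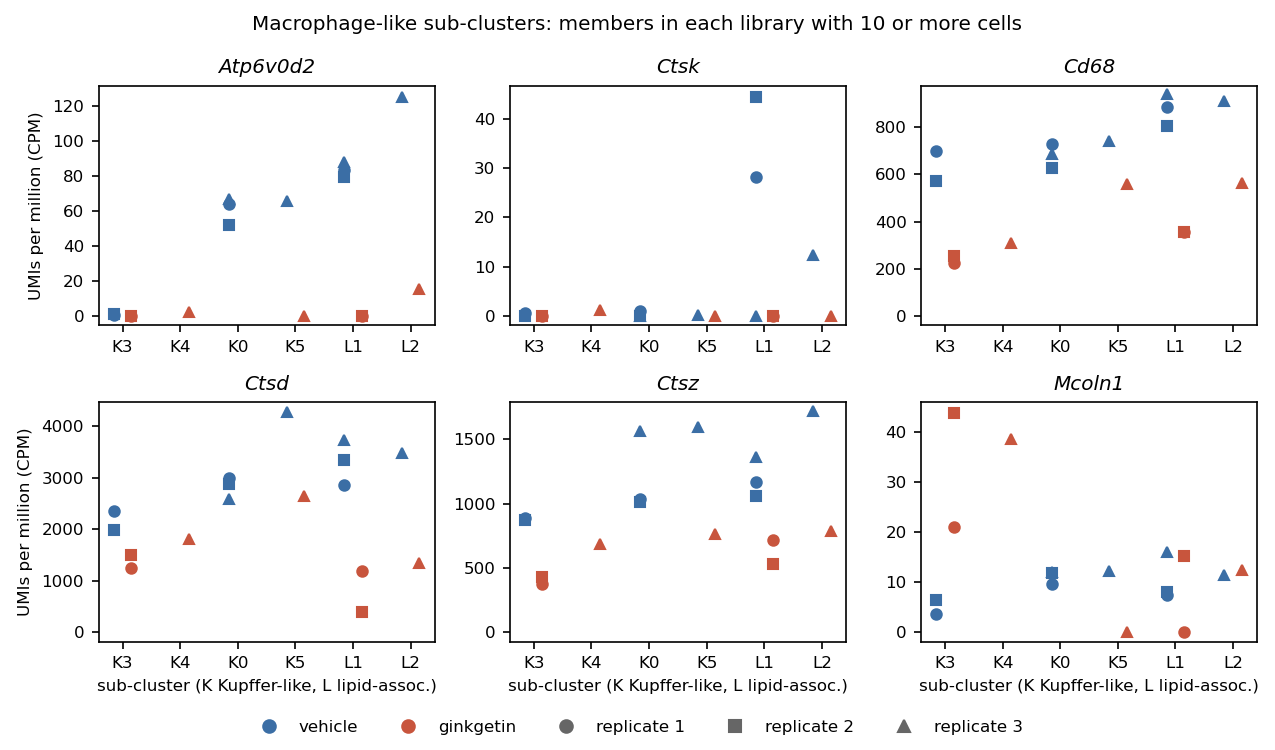
Level (y axis, CPM) of 6 members in the sub-clusters of macrophage-like cells (x axis, K for Kupffer-like and L for lipid-associated), with 1 point per library of 10 or more cells, blue for vehicle and red for ginkgetin. In K3 the Atp6v0d2 points of both groups lie at or near 0, whereas those of Cd68, Ctsd, Ctsz and Mcoln1 separate by group.

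Lipid-associated macrophage-like cells were few after ginkgetin (14, 42 and 35 cells, against 473, 289 and 705 with vehicle). Those few cells held 752, 1063 and 2945 CPM of the 8 lipid-associated markers, below the 6823 to 8301 CPM of the vehicle cells of this class and also below the 3722 to 5130 CPM of vehicle Kupffer-like cells. The sum of the 9 endothelial markers in this class was 171 to 1038 CPM with ginkgetin and 51.6 to 79.7 CPM with vehicle. The part of either difference in the falls of members was not tested. Of 41 members tested, 5 were called, all lower, where 2.05% of 7712 genes were called, 0.973% lower and 1.08% higher. Atp6v0d2 was at 83.0, 79.7 and 125 CPM with vehicle and 0, 0 and 15.6 CPM with ginkgetin (log2 fold change -3.84, SE 0.57, edgeR quasi-likelihood test, adjusted p = 0.0113). Ctsd was at 2860, 3323 and 3491 CPM with vehicle and 1185, 387 and 1348 CPM with ginkgetin (log2 fold change -2.03, SE 0.39, adjusted p = 0.0321). Ctsl (log2 fold change -1.36, adjusted p = 0.037), Cd68 (-1.29, adjusted p = 0.0353) and Ctsz (-1.23, adjusted p = 0.0431) also fell. With the replicate number as a block 10 members were called lower, where 3.11% of all genes were. The count was 0 with no filter on cells, with members kept in clustering and with genes of 1 barcode set kept, and the section on processing gives the shares of all genes there. Without ginkgetin replicate 1 all 5 calls were lost. Without ginkgetin replicate 2 or vehicle replicate 1 or 2 only the call of Atp6v0d2 remained. The share of all genes called in these fits is not given, so whether the loss was particular to the members cannot be read from them. Ctsk was at 28.2, 43.9 and 12.2 CPM with vehicle in these cells and at 0 UMIs of 596230 with ginkgetin. That count allows up to 5.03 CPM over the group, but up to 38.2, 15.3 and 9.34 CPM in the single libraries (3 counts each), which reaches into the vehicle levels. Its fitted difference did not pass the test (adjusted p = 0.099), but did with the block (adjusted p = 6.67e-05). In Kupffer-like cells it had 9 UMIs of 17793907 with vehicle and 2 of 2413770 with ginkgetin and was not tested. The level with vehicle was 0.61 times that with ginkgetin there (95% exact interval 0.126 to 5.81), an interval that holds both directions.

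Atp6v0d2 and Ctsk were also read as shares of cells, after each cell was thinned to 1000 UMIs so that depth was equal. An Atp6v0d2 UMI was found in 4.45%, 2.81% and 6.79% of macrophage-like cells with vehicle and in 0%, 0% and 0.204% with ginkgetin. The means were 4.68% ± 1.997 and 0.0679% ± 0.118 (SD, n = 3 each, p = 0.1 in a two-sided exact permutation test, the smallest that 3 against 3 libraries can give). T cell-like cells, used as the background, had means of 0.198% and 0.0345%, at median depths of 2744.5 to 4253.5 and 2627 to 6313 UMIs per cell. The vehicle share in macrophage-like cells was thus above that background and the ginkgetin share near it, with 0 of 102 and 0 of 238 cells allowing up to 2.94% and 1.26%. Before thinning the means were 22.5% and 0.304%. In Kupffer-like cells the thinned means were 3.56% ± 0.79 and 0.149% ± 0.258 (SD, n = 3 each, exact permutation p = 0.1). A Ctsk UMI was seen in 0.688% ± 0.137 of macrophage-like cells with vehicle and 0.0679% ± 0.118 with ginkgetin (SD, n = 3 each, exact permutation p = 0.1), against 0 of 2483 and 0 of 2307 T cell-like cells, which allows up to 0.13% of the latter. Thinning left out 2 vehicle and 58 ginkgetin macrophage-like cells with fewer than 1000 UMIs.

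No gene tracked Atp6v0d2 closely across cell classes. Over 71 sums of a class in a library, in 44 of which Atp6v0d2 had no UMI, the 5 genes with the highest Spearman rho among 10523 genes were Saa1 (0.52), Ubd (0.51), Gpnmb (0.50), Imp4 (0.50) and Rcbtb2 (0.50). The sums share libraries and depth, and rho at this level in sparse counts is given as a description only.

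Outside the macrophages no member was called by edgeR in the fit with the main filters on cells and genes, all 6 libraries and no block. Calls appeared under other settings. Atp6v0a1 and Ctss were called in endothelial-like cells with the limits on cells read as UMIs, where 1.29% of all genes were, and with replicates 1 and 2 alone, where 3.49% were. In the 10 classes other than these cells 12 calls were made with no filter on genes, where 1.07% of the tests of all genes were called, and 1, Ctsh in cholangiocyte-like cells, with no filter on cells, where 0.412% were. In endothelial-like cells 0 of 40 tested members were called by the edgeR quasi-likelihood test, where 1.29% of 10166 genes were called, although DESeq2 called 3 members and 3.32% of all genes. An unadjusted p under 0.05 was found for 5 of the 40 (12.5%) beside 14.6% of all genes. With the replicate number as a block 4 members and 4.49% of all genes were called, the members being Ctss, Cd68 and Ctsh lower and Atp6v0a1, a brain-enriched isoform of the V0 a subunit, higher. Atp6v0a1 was at 28.3, 25.5 and 52.3 CPM with vehicle and 69.3, 72.0 and 103 CPM with ginkgetin in these cells, without overlap (log2 fold change 1.07, SE 0.21, adjusted p = 0.0694 without the block and 0.00446 with it). Cd68 was at 14.5, 15.01 and 13.4 CPM with vehicle and 3.28, 8.10 and 5.05 CPM with ginkgetin. The sum of the 9 macrophage markers in endothelial-like cells was likewise 203 to 323 CPM with vehicle and 66.0 to 152 CPM with ginkgetin. Its part in the Cd68, Ctss and Ctsh values was not tested.

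In the remaining 10 classes 0 of 342 tests of a member in a class were called by edgeR in that fit. With the replicate block 11 (3.22%) were called, all lower, where 1.06% of the tests of all genes were called lower. The larger share of all genes called in either direction with the block is given in the section on processing. DESeq2 called 6 (1.75%), all lower, where 1.02% of all were called in either direction. In the fit without a block, 0.887% of all genes tested were called in cholangiocyte-like, 0.285% in dendritic-like, 0.199% in hepatocyte-like, 0.158% in plasmacytoid dendritic-like, 0.0616% in NK cell-like, 0.0248% in monocyte-like and 0.0156% in plasma cell-like cells, and 0% in B cell-like, T cell-like and stellate-like cells. An unadjusted p under 0.05 was found for between 2 of 34 members in NK cell-like cells (5.88%, beside 10.9% of all genes) and 11 of 37 in dendritic-like cells (29.7%, beside 19.5%). The 11 calls with the block were all lower. They were Ctsa, Ctsz, Cd68, Ctsd and Lgmn in dendritic-like cells, Lgmn and Ctsd in monocyte-like cells, and Ctss in NK cell-like, cholangiocyte-like, plasma cell-like and stellate-like cells. In monocyte-like cells Lgmn was at 459, 382 and 448 CPM with vehicle and 182, 169 and 161 CPM with ginkgetin, and Ctsd at 475, 478 and 477 against 266, 239 and 210 CPM, both without overlap. In T cell-like cells Ctss was at 161, 115 and 125 CPM with vehicle and 42.2, 72.2 and 75.6 CPM with ginkgetin (log2 fold change -1.07, adjusted p = 0.309), and it was not called there. Ctss had a mean of 3318 CPM in macrophage-like cells and of 21.7 CPM in cholangiocyte-like cells, its lowest class. The part of macrophage RNA carried into these other classes in their Ctss values was not tested.

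The difference of the ginkgetin effect between macrophage-like and endothelial-like cells was tested by an interaction term across 11128 genes. It was called for 7 members, 6 with the more negative effect in macrophage-like cells and 1 with the more positive, where 3.01% and 5.98% of genes were called in these directions. Ctsd had an interaction of -2.03 on the log2 scale (SE 0.27, adjusted p = 4.70e-04), since its endothelial-like levels were 331, 375 and 463 CPM with vehicle and 465, 453 and 701 CPM with ginkgetin. Atp6v0a1 (-1.75), Ctsz (-1.61), Gusb (-1.26), Hexa (-1.05) and Ctsk (-4.13) followed, and Ctsf (1.35) was the one in the other direction. Cd68 (-0.37, adjusted p = 0.537), Mcoln1 (0.48, adjusted p = 0.290) and Atp6v0d2 (-1.73, SE 2.98, adjusted p = 0.757) were not called by this test. Atp6v0d2 had 9 UMIs with vehicle and 1 with ginkgetin in endothelial-like cells, and its effect was not shown to differ between the classes.

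Other lysosomal genes were counted from 5 lists of 83 genes, 81 of them in the tables. In macrophage-like cells 69 were tested, of which 8 (11.6%) were called lower and 4 (5.80%) higher, beside 6.81% and 7.07% of all genes, with a median log2 fold change of -0.32 beside 0.03. Among the 28 other hydrolases 3 were lower and 2 higher, led by Ids (18.0, 19.1 and 18.5 CPM with vehicle, 56.1, 55.5 and 86.4 CPM with ginkgetin, log2 fold change 1.37, adjusted p = 0.00494), which removes sulphate from heparan sulphate, and by Gla (log2 fold change -2.30, adjusted p = 0.00594) and Acp5 (-1.44, adjusted p = 0.00604), the latter being tartrate-resistant acid phosphatase. Of 18 other membrane and sorting genes 3 were lower and 2 higher, with Cd63, a tetraspanin of late endosomes, at 888, 794 and 1043 CPM with vehicle and 184, 78.1 and 80.6 CPM with ginkgetin (log2 fold change -3.45, SE 0.43, adjusted p = 0.00379) and Sort1 at a log2 fold change of -2.99. Of the 3 tested cathepsins and cystatins of the next list, Cstb, an inhibitor of cysteine cathepsins, fell (log2 fold change -2.08, adjusted p = 0.00711). Of the 19 tested genes of TFEB control and autophagy, Gabarap fell (log2 fold change -1.06, adjusted p = 0.0436) and no gene was called higher. The 1 tested gene among the other V-ATPase subunits was not called.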

How the data were processed

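The deposited files hold raw UMI counts per gene and cell, with 1 table per library, as the authors made them. The submitters' processing notes name GRCm38 and mm10, and the aligner is not given in the sources used here. The labels describe a bulk library kit and liver tissue, whereas the study's methods name 10x Chromium and non-parenchymal cells. The members and gene lists were chosen with earlier results of these data known. Cells with 250 to 5000 genes and under 5% mitochondrial UMIs were kept (27544). The methods of the study give these limits for UMIs, which kept 16821 cells and was an alternative. Doublets were not removed, except in an alternative. Genes with UMIs in 1 library set only and the members were left out of clustering (scanpy 1.11.5, 2000 variable genes, 30 components, Leiden resolution 1). A cluster needed 3 markers to be named, by a scoring rule set after the data were seen, and 1241 cells stayed unnamed. Sums over at least 10 cells were tested with edgeR 4.0.16 (TMM, filterByExpr, quasi-likelihood, Benjamini-Hochberg over all genes tested), with DESeq2 1.42.0 as an alternative, and the tests were tried on simulated counts. Deviations of same-numbered vehicle and ginkgetin libraries correlated at 0.186, 0.169 and 0.514 in macrophage-like cells, and vehicle replicate 2 with ginkgetin replicate 1 at 0.202, so the replicate number was used as a block in an alternative, though replicates 1 and 2 were not told apart. Values in every library are given for 18 set members, except Atp6v0c, and for called members. They are also given for the 3 largest rises and falls with a mean of 50 CPM or more, except Gaa. Values of 1 gene in the lists of other lysosomal genes are not reported here, and the gene stays in the counts. Promoter windows came from RefSeq. Intervals and limits of 3 counts cover counting error only.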

Additional observations from a re-analysis of the deposited data

Results flagged for a closer look

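The group effect in macrophage-like cells minus that in endothelial-like cells differed for 7 of the 42 members by the interaction term of the edgeR quasi-likelihood test, each library giving both classes. In the same test 3.01% of 11128 genes were called lower and 5.98% higher. On the log2 scale the difference was -2.03 for Ctsd (adjusted p = 4.70e-04), -1.75 for Atp6v0a1 (adjusted p = 0.00142), -1.61 for Ctsz (adjusted p = 0.00192), -1.26 for Gusb (adjusted p = 0.00327), 1.35 for Ctsf (adjusted p = 0.00786), -1.05 for Hexa (adjusted p = 0.0188) and -4.13 for Ctsk (adjusted p = 0.027). Of these, Atp6v0a1 and Hexa were called in neither class alone in the main comparison, while Atp6v0a1 was called in endothelial-like cells with DESeq2, with either block, with replicates 1 and 2 alone and with the UMI filter. The part of the depth of the macrophage-like cells in these differences was not tested.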

How the results depend on the processing

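Of 341 alternative values of 19 called log2 folds, 283 kept their call, 58 lost it and 0 turned sign. Of 600 values of 33 uncalled folds, 24 gained a call and 27 turned sign. The causes were not tested. Parentheses after a count give the share of all genes called that way in the same fit. The ranges leaving out libraries have no such share, and it differed between those fits. Genes called by the interaction test numbered 566 of 11297 without ginkgetin replicate 3 and 1063 of 11293 without ginkgetin replicate 2. These ranges therefore cannot be read as a result about the members. In macrophage-like cells members called lower (6) numbered 12 (9.43%) with no minimum fold and 3 (3.25%) with the limits on cells read as UMIs, and 6 to 9 leaving out single libraries. Those called higher (2) numbered 0 (3.11%) with that UMI filter and 1 to 3 leaving out libraries. In Kupffer-like cells the lower count (5) was 8 (7.99%) with no minimum fold, 3 (7.10%) in the shared sub-cluster and 4 to 10 leaving out libraries. The higher count (1, 6.03%) was 2 (7.59%) with no minimum fold, 3 (16.7%) with total UMIs only, 2 (6.61%) with replicates 1 and 2 only, 0 (2.79%) with the UMI filter, 2 (5.19%) with members kept in clustering, 2 (6.02%) without the highest doublet scores and 0 to 3 leaving out libraries. In lipid-associated macrophage-like cells the lower count (5, 0.973%) was 2 (0.428%) with total UMIs, 11 (2.49%) with no filter on genes, 8 (1.80%) with DESeq2, 10 (3.11%) with the replicate block, 8 (2.85%) with the barcode-set block, 0 (0.117%) with no filter on cells, 0 (0.108%) with members kept in clustering, 0 (0.0743%) with genes of 1 barcode set kept and 0 to 4 leaving out libraries. With the UMI filter no sub-cluster took this name, and a sub-cluster of 315 cells with 6 lipid-associated and 3 Kupffer markers detected was named Kupffer-like. In endothelial-like cells the count (0, 1.29%) was 3 (3.32%) with DESeq2, 4 (4.49%) with the replicate block, 5 (4.57%) with the barcode-set block, 2 (3.49%) with replicates 1 and 2 only, 2 (1.29%) with the UMI filter and 0 to 1 leaving out libraries. In the remaining classes the count (0, 0.172%) was 12 (1.07%) with no filter on genes, 6 (1.02%) with DESeq2, 11 (2.24%) with the replicate block, 10 (1.92%) with the barcode-set block, 1 (0.263%) with replicates 1 and 2 only and 1 (0.412%) with no filter on cells. By the interaction test the higher count (1, 5.98%) was 4 (12.8%) with total UMIs, 2 (4.58%) with no filter on genes, 2 (4.06%) with replicates 1 and 2 only, 2 (2.60%) with the UMI filter and 1 to 4 leaving out libraries, and the lower count (6) was 4 to 6. The replicate block changed no call in macrophage-like or Kupffer-like cells.

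The Atp6v0d2 share difference in macrophage-like cells (-4.62 points) was -22.1 without thinning and -5.55 to -3.56 leaving out libraries. In Kupffer-like cells (-3.41) it was -18.3 without thinning, -4.86 with no filter on cells, -4.60 with members kept in clustering, -4.40 without the highest doublet scores and -3.64 to -2.96 leaving out libraries. The Ctsk difference in macrophage-like cells (-0.620) was -3.22 without thinning, -0.137 with the UMI filter, -0.760 with no filter on cells, -0.768 with members kept in clustering, -0.942 without the highest doublet scores and -0.688 to -0.543 leaving out libraries. In Kupffer-like cells (-0.0470) it was -0.372 without thinning, -0.196 with the UMI filter, turned sign to 0.0171 with no filter on cells and -0.0705 to 0 leaving out libraries. With no filter on cells the Kupffer-like cells included a sub-cluster of 460 cells with 6 lipid-associated and 4 Kupffer markers detected. The share of macrophage-like UMIs held by the members, ginkgetin minus vehicle (-0.158 points), turned sign with the UMI filter (0.345 points).

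The log2 folds that turned sign in macrophage-like cells were, with total UMIs, Atp6v0c 0.23, Atp6v1a 0.21, Ctsb 0.15, Lamp1 0.21, Psap 0.26 and Tfeb 0.056; with the UMI filter, Atp6v1a 0.037, Ctsb 0.10, Ctsl 0.13 and Lamp1 0.025; with replicates 1 and 2, Atp6v0c 0.20; and leaving out libraries, Gaa (-0.018 without ginkgetin replicate 2, to 0.50). In Kupffer-like cells they were, with total UMIs, Atp6v1a 0.30, Ctsb 0.24, Lamp1 0.24, Psap 0.38 and Tfeb 0.15; with the UMI filter, Ctsb 0.00493 and Ctsl 0.014; in the shared sub-cluster, Atp6v1a 0.28, Psap 0.53, Lgmn -0.018 and Tfeb 0.63; with no filter on cells, Atp6v0c -0.067; with replicates 1 and 2, Psap 0.048; and leaving out libraries, Psap (-0.19 to 0.00759, the latter without ginkgetin replicate 3) and Gaa (-0.00212 without ginkgetin replicate 2, to 0.58). Rare members such as Atp6v0c, Mcoln1 and Ctsk are limited by the few UMIs of the ginkgetin libraries.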
